A study of Mus musculus with 50 samples.

Results

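Loss of the histone methyltransferases Suv39h1 and Suv39h2 was examined in mouse embryonic stem cells that already lacked Setdb1, another enzyme for the same histone mark. The genes described are the 12235, of 24412 listed and 13862 tested, that reached 1 TPM in at least 2 of the 4 libraries compared. By their second-highest value, 135 of them lay just inside, from 1 to 1.1 TPM, and 146 genes just outside, from 0.9 to 1 TPM. TPM is a transcript abundance per length scaled to a fixed total, so sequencing depth was not known. The cells were of strain TT2. Groups were Suv39h1/2;Setdb1-TKO (TKO below, 2 libraries, both from cells named SE) and Setdb1-KO (2 libraries, from cells named 33-6), and the titles of all 4 libraries carried OHT, a label that is not explained. The same loss with Setdb1 in place was read as Suv39h1/2-DKO (DKO, cells SE) against control (cells 33-6), both labelled NT. With G9a (the product of Ehmt2) lost too, it was read as G9a;Suv39h1/2;Setdb1-QKO (QKO, cells 3S1G) against G9a;Setdb1-DKO (cells SG), both labelled OHT. In a table of its own it was read again in cells whose genotype field gives Dux-KO, with an inducible Dux transgene (Tet-on-Dux) and no doxycycline (dose label 0), as TKO (cells SEi) against Setdb1-KO (cells 33i), both labelled OHT. Each comparison sets cells of different names against each other, so the loss of Suv39h1/2 cannot be told apart from other differences between the cells. Each group held 2 libraries, which the labels do not call separate cultures. Unless a fit of fewer libraries is named, every p-value rests on the spread within groups, pooled over all groups of its table. It does not measure the spread of the compared libraries alone.

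All of these enzymes methylate lysine 9 of histone H3, a mark of silent chromatin. SETDB1 places it on retroelements and on many single genes, whereas SUV39H1 and SUV39H2 are best known for the repeats beside centromeres. In embryonic stem cells a rare state resembles the 2-cell embryo and expresses Dux, a homeobox activator, together with its targets such as the Zscan4 and Usp17l families. Another rare state resembles primitive endoderm, the extraembryonic layer that makes the basement membrane of Reichert and the yolk sac.

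The libraries bore the stem cell label, with Pou5f1, the core pluripotency factor, at 2536 and 2534 TPM in TKO against 2429 and 2406 TPM in Setdb1-KO. Of the markers of other cells, Col3a1, a fibroblast collagen, stayed at or below 0.0125 TPM in TKO and at or below 0.0122 TPM in Setdb1-KO, and Postn was listed at 0 in all 4. All 23 genes of the fibroblast list (8 of them members) summed to 448 to 481 TPM in TKO and 356 to 451 TPM in Setdb1-KO. All 19 of the trophoblast list (12 members) summed to 113 to 123 TPM in TKO and 108 to 119 TPM in Setdb1-KO. All 12 of the neural list (4 members) summed to 82.5 to 96.1 TPM in TKO and 79.9 to 84.6 TPM in Setdb1-KO. The number of genes at 1 TPM or more ran from 12036 to 12212 over the 4 libraries. The 2 Setdb1-KO libraries differed from each other by transcript length. In the fourth of 4 groups of members ordered by transcript length, the longest, the median difference of replicate 2 minus replicate 1 in log2(TPM+1) was -0.097 in TKO and 0.41 in Setdb1-KO, and in the first, the shortest, it was -0.043 in TKO and -0.039 in Setdb1-KO. The mean of TKO stood 0.32 above Setdb1-KO replicate 1 and 0.10 below Setdb1-KO replicate 2 in the longest group. The part of length in the results was not tested. Below, only the 2-cell, primitive endoderm, pluripotency and ribosomal protein lists are also given with a library left out.

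**Figure D1:**
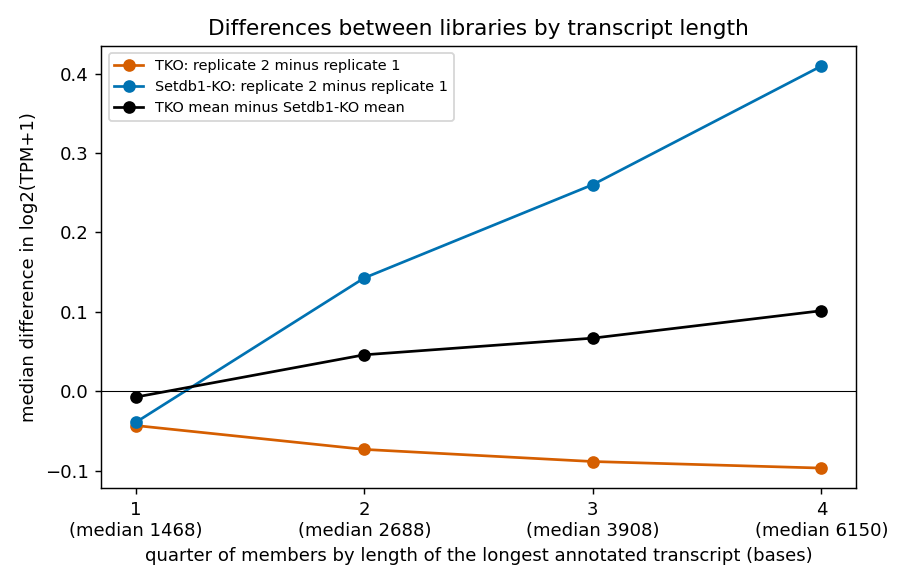
Median difference in log2(TPM+1) between libraries (vertical axis) in 4 equal groups of the members ordered by the length of their longest annotated transcript (horizontal axis). The Setdb1-KO replicates diverged with length, up to 0.41 in the longest group, while the TKO replicates stayed between -0.043 and -0.097.

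The targeted genes checked the labels only in part. Transcript of all 3 was still present, and Setdb1 is labelled as lost in both groups, so comparing them cannot check its label. Suv39h1 (chrX:8061171-8074760, GRCm38) was at 20.8 and 17.0 TPM in TKO against 24.0 and 29.5 TPM in Setdb1-KO (log2 fold change of -0.48 with an SE of 0.127 and an adjusted p = 0.165; limma with Benjamini-Hochberg adjustment over all genes tested, as for every adjusted p below). Suv39h2 (chr2:3455815-3475031) was at 17.1 and 15.04 TPM in TKO against 21.2 and 27.2 TPM in Setdb1-KO (-0.55, SE 0.152, adjusted p = 0.196). Both genes were lower in both TKO libraries than in either Setdb1-KO library without passing the test. Setdb1 (chr3:95323525-95357202) was at 27.0 and 22.6 TPM in TKO against 19.8 and 26.0 TPM in Setdb1-KO, with overlapping libraries, and Ehmt2 was at 104 and 95.6 TPM in TKO against 82.5 and 99.4 TPM in Setdb1-KO. Protein was not measured. Dux, which sits upstream of the 2-cell program, was at 11.6 and 12.8 TPM in TKO against 12.5 and 14.1 TPM in Setdb1-KO (-0.11, SE 0.12, adjusted p = 1), so the Dux libraries overlapped.

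Few genes differed between TKO and Setdb1-KO. At an adjusted p below 0.05 and a log2 fold change of at least 1 in size, 5 members were higher in TKO (0.0409% of 12235) and 8 were lower (0.0654%), 13 in all (0.106%). Of all members, 97.3% lay within 0.5 of 0 on the log2 scale, and the median was 0.06. With no minimum size, a rule added after seeing the data, 29 genes were higher (0.237%) and 43 lower (0.351%), with sizes from 0.47 to 1.33. The libraries of all 72 (0.588%) did not overlap between the groups, against 26.9% of all members, and 70 had distinct values. The 72 were picked on these same values, so their lack of overlap is no added evidence. Of all members 114 reached 1 TPM in the libraries of 1 group only, and so had to differ; among the 72 these were Cyp4a12b and Ifi203, through TKO, and Ubtfl1, through Setdb1-KO. With TPM scaled by median ratios, which moved the median of all members to 0.00, the counts at the size limit were 4 higher and 16 lower. Leaving out a library gave 2 higher and 5 lower without TKO replicate 1, 3 and 5 without TKO replicate 2, 4 and 8 without Setdb1-KO replicate 1, and 6 and 3 without Setdb1-KO replicate 2. With no minimum size the same 4 fits gave 2 and 7, 5 and 9, 5 and 13, and 13 and 7. The 4 libraries fitted without the other groups of the table called 1 gene in each direction, Gm15091 and Gm15127, and none of the 13, with 561 members at an unadjusted p below 0.05 against 925 in the fit of all 18 libraries (577 higher, 348 lower). Of the 26 members at or past the size limit, those not called included Eif3j1 (159 and 48.7 TPM in TKO, 31.4 and 0.0028 TPM in Setdb1-KO) and its near-identical copy Eif3j2 (0.294 and 96.5 TPM in TKO, 107 and 157 TPM in Setdb1-KO), whose replicates disagreed in opposite directions.

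**Figure D2:**
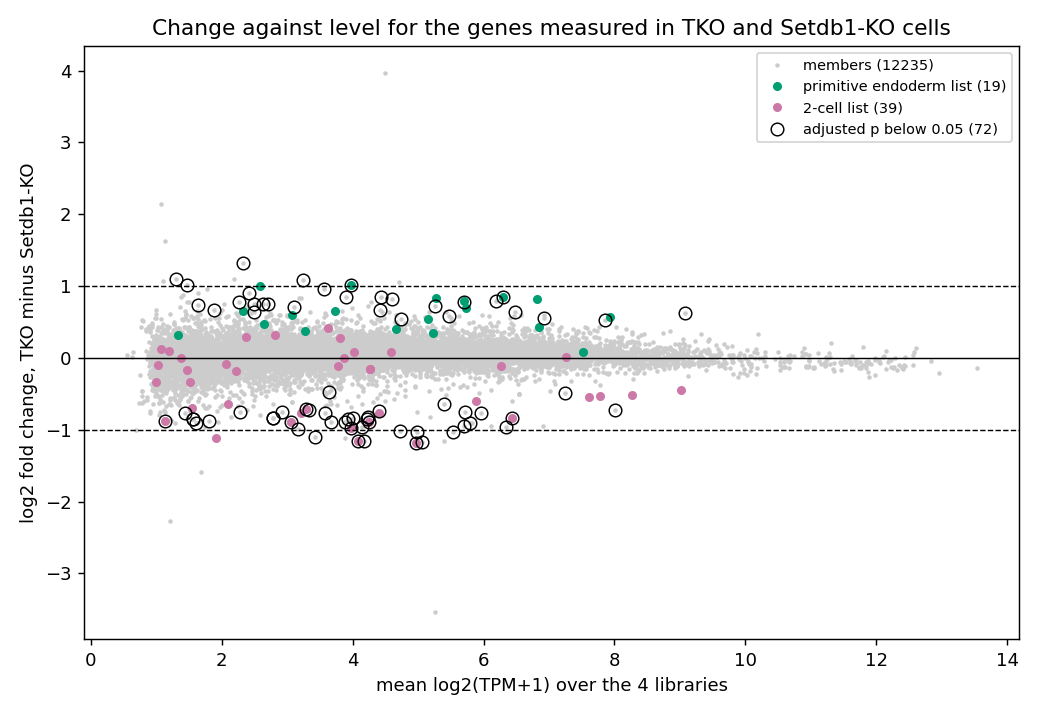
Log2 fold change of TKO minus Setdb1-KO (vertical axis) against the mean log2(TPM+1) over the 4 libraries (horizontal axis) for 12235 genes. Genes at an adjusted p below 0.05 are circled (72), the 19 primitive endoderm genes lie above 0, and 29 of the 39 members of the 2-cell list lie below it.

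Genes lower in TKO were led by members of the 2-cell program. Usp17lb, a deubiquitinase gene of the Usp17l family, was at 20.4 and 19.4 TPM in TKO against 44.6 and 48.2 TPM in Setdb1-KO (-1.18, SE 0.119, adjusted p = 0.000471). Its neighbour on chromosome 7, Usp17la, was at 12.1 and 8.75 TPM in TKO against 21.1 and 27.9 TPM in Setdb1-KO (-1.16, SE 0.171, adjusted p = 0.00709). Both genes fell by more than the spread between replicates, and Usp17lb kept its call without any single library, whereas the adjusted p of Usp17la ran from 0.0176 to 0.104. Lincenc1, a long noncoding RNA of stem cells, was at 22.2 and 20.2 TPM in TKO against 42.5 and 46.4 TPM in Setdb1-KO (-1.03, SE 0.102, adjusted p = 0.000471), and its adjusted p stayed below 0.05 with any single library left out, at log2 fold changes from -1.10 to -0.97. The other 5 called genes have predicted or clone names (Gm2022, AI662270, Gm4971, Gm5039 and B020031M17Rik), with log2 fold changes from -1.18 to -1.01. In bulk cultures, fewer cells in a state and less RNA per cell in that state cannot be told apart.

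The 250 bases before the annotated start of Usp17la and Usp17lb, and of Zscan4c and Zscan4f, show how alike neighbouring copies are. Differences between backgrounds for both of these Zscan4 genes are given further below. How reads shared by copies were divided is not stated, so values of single copies are uncertain. The bases are given 5′ to 3′ from RefSeq (GRCm38.p6), with TATAAA, the core of a TATA box, in capitals.
Usp17la: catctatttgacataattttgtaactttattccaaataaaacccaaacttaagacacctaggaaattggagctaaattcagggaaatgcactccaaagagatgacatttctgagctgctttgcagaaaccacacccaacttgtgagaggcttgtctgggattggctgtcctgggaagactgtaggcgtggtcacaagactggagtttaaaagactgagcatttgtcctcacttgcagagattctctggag
Usp17lb: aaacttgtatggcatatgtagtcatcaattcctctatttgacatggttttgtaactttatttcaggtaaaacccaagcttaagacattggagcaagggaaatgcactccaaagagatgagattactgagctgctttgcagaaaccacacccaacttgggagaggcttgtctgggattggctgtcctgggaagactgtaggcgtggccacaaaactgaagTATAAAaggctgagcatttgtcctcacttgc
Zscan4c: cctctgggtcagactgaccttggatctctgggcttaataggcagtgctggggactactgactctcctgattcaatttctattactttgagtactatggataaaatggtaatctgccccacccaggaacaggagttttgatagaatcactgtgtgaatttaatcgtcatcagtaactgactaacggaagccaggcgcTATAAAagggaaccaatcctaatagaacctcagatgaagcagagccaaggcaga
Zscan4f: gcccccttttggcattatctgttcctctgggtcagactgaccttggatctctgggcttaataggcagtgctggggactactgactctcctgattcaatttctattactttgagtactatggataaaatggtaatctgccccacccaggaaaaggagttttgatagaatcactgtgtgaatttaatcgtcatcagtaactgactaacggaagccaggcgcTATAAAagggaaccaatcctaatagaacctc
They lie at chr7:104856766-104857015 on the plus strand (Usp17la), chr7:104842584-104842833 on the minus strand (Usp17lb), chr7:11005495-11005744 on the plus strand (Zscan4c) and chr7:11397665-11397914 on the plus strand (Zscan4f). Usp17la and Usp17lb were identical at 205 of 220 aligned bases (93.2%), and Zscan4c and Zscan4f at 226 of 227 (99.6%). TATAAA begins 31 bases before the annotated start of Usp17lb and of Zscan4f and 54 bases before that of Zscan4c, and it was not in the window of Usp17la. On either strand of these windows it occurred in 7 of 28 promoters of the 2-cell list (24 of its 39 members had an entry), in 6.14% of the promoters of all members, in 12.4% of all 32851 promoters, and in 1 of 19 promoters of the genes lower in TKO. The 2-cell share rests partly on copies that share their sequence.

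The 2-cell list held 50 genes, 39 of them members, and 29 of the 39 lay below 0, with a median log2 fold change of -0.33 against 0.06 over all members. At the size limit 2 were lower, Usp17la and Usp17lb, and none was higher; at any size 8 were lower (20.5% of the list, against 0.351% of all members) and none higher, and at an unadjusted p below 0.05 there were 20 lower and 0 higher, beside 348 lower and 577 higher among all 12235 members. The count of 8 was 2 with a pseudocount of 0.1, 5 with no filter on low values, 12 scaled by median ratios, and 1 to 4 with a library left out. The lists, like the members, were chosen with results of these data known. Of the 39, 2 (Tdpoz5 and Ubtfl1) reached 1 TPM in the libraries of 1 group only, and so had to differ. Ubtfl1, counted among the 8, did so through Setdb1-KO and had to be lower in TKO. Zscan4a, of the family that lengthens telomeres, was at 63.3 and 64.3 TPM in TKO against 108 and 121 TPM in Setdb1-KO (-0.83, SE 0.127, adjusted p = 0.00883). Tcstv1 was at 13.6 and 12.4 TPM in TKO against 29.3 and 21.2 TPM in Setdb1-KO (-0.89, SE 0.17, adjusted p = 0.0306), and Tcstv3 at 9.65 and 10.8 TPM in TKO against 20.9 and 21.4 TPM in Setdb1-KO (-0.98, SE 0.168, adjusted p = 0.0166). All 3 fell in both TKO libraries, and Tmem92, Cml2 and Ubtfl1 fell too, by 0.89, 0.70 and 0.88 on the log2 scale. Zscan4a, Tcstv1 and Tmem92 each passed in 1 of 4 fits that left out a library, and Tcstv3, Cml2 and Ubtfl1 in 0 of 4. With a pseudocount of 0.1 none of these 6 passed (adjusted p from 0.0784 to 0.34), and with no filter on low values Tcstv1, Tcstv3 and Ubtfl1 did not. The most abundant member, Zscan4f, was at 450 and 438 TPM in TKO against 570 and 648 TPM in Setdb1-KO without passing the test (-0.45, SE 0.142, adjusted p = 0.285). Zscan4c was at 257 and 258 TPM in TKO against 347 and 391 TPM in Setdb1-KO (-0.51, SE 0.154, adjusted p = 0.246). The whole list summed to 1650 and 1612 TPM in TKO, to 2060 and 2434 TPM in Setdb1-KO and to 425 and 456 TPM in control, so the libraries of both genotypes stayed above control in sum. The list median ran from -0.39 to -0.26 with 1 library left out, and of its members 1 to 3 were then lower at the size limit.

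Of the Obox and germline lists 1 gene passed the test, and 2 further germ cell genes are given with it. Obox4, a homeobox gene of the 2-cell embryo, was at 43.8 and 35.5 TPM in TKO against 69.1 and 81.5 TPM in Setdb1-KO (-0.91, SE 0.142, adjusted p = 0.00941), and was the 1 of 3 Obox members that passed the test, and did so in 2 of 4 fits that left out a library; with no filter on low values its adjusted p was 0.0506. Aurkc, the Aurora kinase of germ cells, was at 5.13 and 5.56 TPM in TKO against 11.4 and 11.8 TPM in Setdb1-KO (-0.99, SE 0.132, adjusted p = 0.00414). Tdrd12, a Tudor protein of the piRNA pathway, was at 13.2 and 10.3 TPM in TKO against 24.1 and 23.4 TPM in Setdb1-KO (-0.97, SE 0.15, adjusted p = 0.00936). Aurkc and Tdrd12 were named after their values were seen. The germline list had no call: of its 42 members 0 were higher and 0 lower by limma, 5 were higher and 3 lower at an unadjusted p below 0.05, and the median was -0.03. Of the genes most released by Setdb1 loss, a list drawn from these libraries and so not independent evidence, 1 of 9 members was lower (Usp17lb) and 0 higher. Its most abundant members, Cd209c (156 and 139 TPM in TKO, 112 and 109 TPM in Setdb1-KO; adjusted p = 0.238) and Akr1c21 (109 and 103 TPM in TKO, 105 and 106 TPM in Setdb1-KO; adjusted p = 1), did not pass the test.

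Genes lower in TKO also included the Nodal inhibitors. Lefty1 was at 9.44 and 7.44 TPM in TKO against 14.5 and 18.4 TPM in Setdb1-KO (-0.89, SE 0.167, adjusted p = 0.0283), and Lefty2 at 15.8 and 15.2 TPM in TKO against 23.9 and 29.2 TPM in Setdb1-KO (-0.73, SE 0.116, adjusted p = 0.00941). Nodal itself was at 88.5 and 94.7 TPM in TKO against 76.7 and 80.7 TPM in Setdb1-KO (0.22, SE 0.108, adjusted p = 0.747). With a library left out, Lefty2 passed in 1 of 4 fits and Lefty1 in 0 of 4, and with no filter on low values the adjusted p of Lefty1 was 0.118. Nodal was named after its values were seen. The 2 Lefty genes were the members of the germ layer and epiblast list (15) that passed, and 0 of the 15 were higher by limma at any size (1 higher and 3 lower at an unadjusted p below 0.05).

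**Figure D3:**
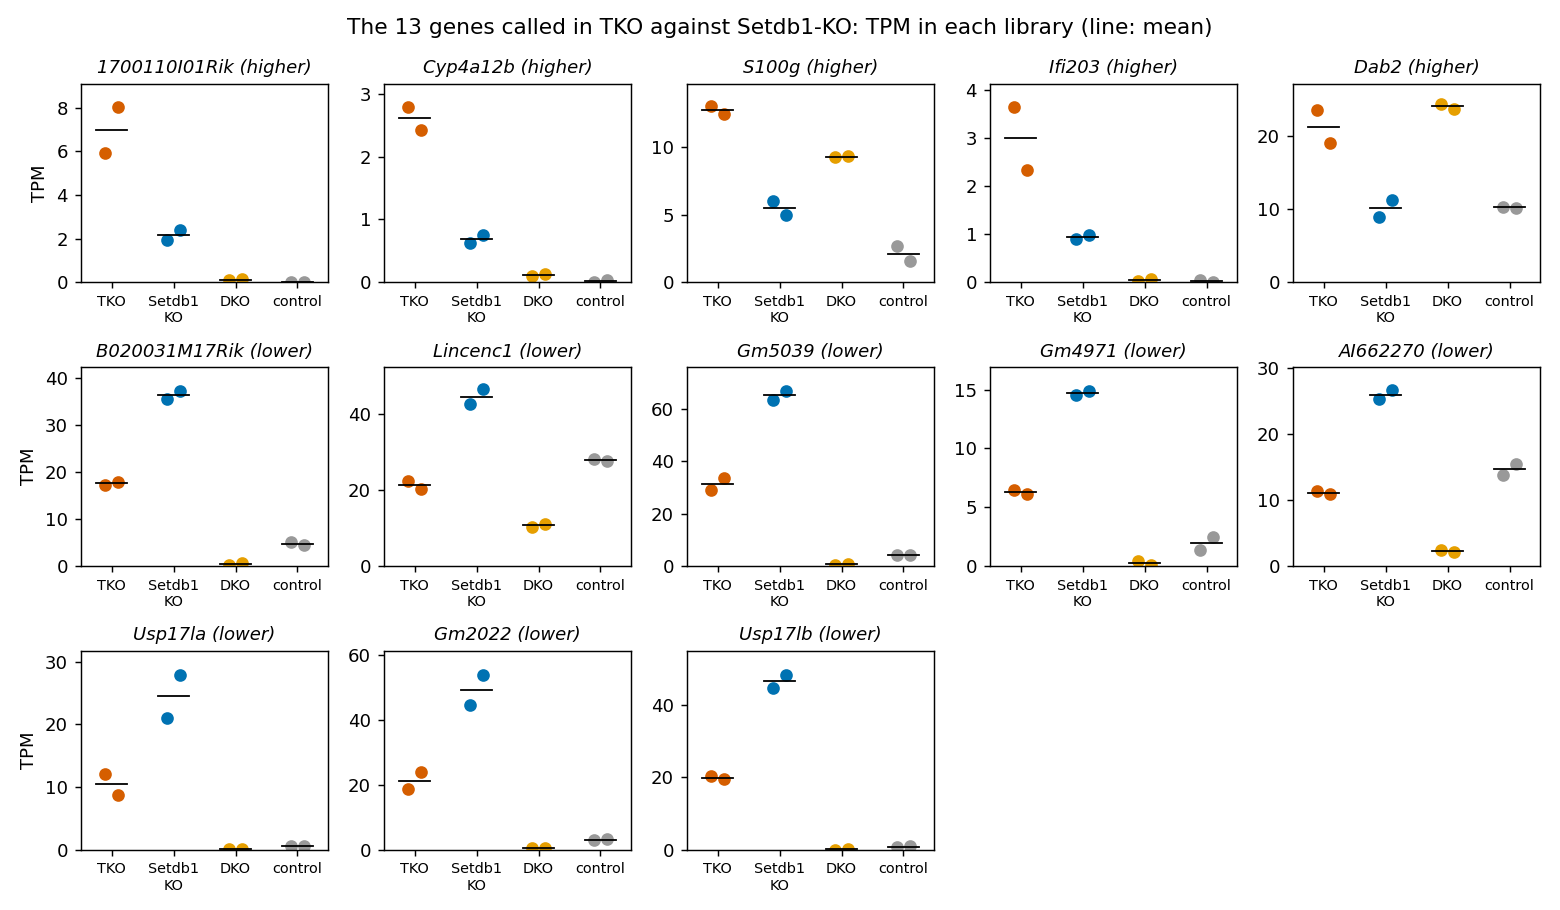
TPM (vertical axes, from 0) of the 13 called genes in each library of TKO, Setdb1-KO, DKO and control cells, with the group mean as a line. In each panel the 2 TKO libraries lie on 1 side of both Setdb1-KO libraries, and for Usp17lb the DKO and control libraries stay below 1 TPM.

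Genes higher in TKO were led by 1700110I01Rik at 5.93 and 8.03 TPM in TKO against 1.94 and 2.38 TPM in Setdb1-KO (1.33, SE 0.17, adjusted p = 0.00318). S100g, the vitamin D-dependent calcium-binding protein calbindin-D9k, was at 13.1 and 12.5 TPM in TKO against 6.05 and 4.99 TPM in Setdb1-KO (1.083, SE 0.168, adjusted p = 0.00936). Cyp4a12b, a cytochrome P450 of fatty acids, was at 2.79 and 2.43 TPM in TKO against 0.631 and 0.747 TPM in Setdb1-KO (1.096, SE 0.116, adjusted p = 0.000551). All 3 stood apart from Setdb1-KO in both libraries, and the adjusted p of Cyp4a12b stayed below 0.05 with any single library left out. Cyp4a12b and Ifi203 were members only through TKO, where they are higher. Ifi203, of the interferon-inducible p200 family, was at 3.64 and 2.33 TPM in TKO against 0.895 and 0.979 TPM in Setdb1-KO (1.02, SE 0.177, adjusted p = 0.0169), and 0 of 16 members of the interferon list passed the test in either direction by limma (0 higher and 2 lower at an unadjusted p below 0.05). The p-values of S100g and Ifi203 passed in 1 of 4 fits that left out a library, and with no filter on low values the adjusted p of Ifi203 was 0.0824.

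Dab2, an endocytic adaptor of primitive endoderm, was the fifth called gene, at 23.7 and 19.06 TPM in TKO against 8.96 and 11.3 TPM in Setdb1-KO (1.01, SE 0.139, adjusted p = 0.005). Srgn, a granule proteoglycan, was at 109 and 99.5 TPM in TKO against 53.5 and 61.5 TPM in Setdb1-KO (0.85, SE 0.12, adjusted p = 0.00625). Each was higher in both TKO libraries, and each passed in 2 of 4 fits that left out a library. Of the primitive endoderm list 19 of 20 genes were members, 1 was higher at the size limit, 2 at any size (10.5%, against 0.237% of all members) and 0 lower, and at an unadjusted p below 0.05 there were 15 higher and 0 lower, beside 577 and 348 of all 12235 members. All 19 log2 fold changes lay above 0, with a median of 0.59 against 0.06 over all members. Among the transcription factors of the layer, Gata4 was at 47.8 and 36.4 TPM in TKO against 26.4 and 30.6 TPM in Setdb1-KO (0.54, SE 0.143, adjusted p = 0.164), Sox7 at 17.99 and 13.8 TPM in TKO against 7.96 and 11.6 TPM in Setdb1-KO (0.66, SE 0.169, adjusted p = 0.142) and Sox17 at 7.52 and 5.37 TPM in TKO against 4.90 and 3.79 TPM in Setdb1-KO (0.47, SE 0.211, adjusted p = 0.651). The libraries of Gata4, Sox7 and Sox17 did not overlap between the groups, but none of the 3 passed the test. Gata6 (mean of 41.7 TPM in TKO and 32.5 TPM in Setdb1-KO), Foxa2 (1.83 and 1.28 TPM) and Pdgfra (28.3 and 21.4 TPM) did not pass either. With a library left out, the log2 fold change ran from 0.19 to 0.50 for Gata6 and from 0.13 to 0.69 for Pdgfra.

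The matrix genes of the list gave a wider spread between the Setdb1-KO replicates. Col4a1, a chain of basement membrane collagen, was at 163 and 137 TPM in TKO against 65.4 and 107 TPM in Setdb1-KO (0.83, SE 0.242, adjusted p = 0.23). Lama1, a laminin chain, was at 54.7 and 46.6 TPM in TKO against 21.9 and 35.2 TPM in Setdb1-KO (0.84, SE 0.228, adjusted p = 0.185). Sparc, a matrix protein with a narrow spread, was at 293 and 297 TPM in TKO against 197 and 201 TPM in Setdb1-KO (0.57, SE 0.138, adjusted p = 0.119). Setdb1-KO replicate 1 was the lower in the first 2 of these. Without Setdb1-KO replicate 1 the median of the 19 was 0.48, beside -0.04 over all members, and without Setdb1-KO replicate 2 it was 0.72, beside 0.16. All 19 stayed above 0 in both. Without TKO replicate 1 the median was 0.56, beside 0.02 over all members, with all 19 above 0. Without TKO replicate 2 it was 0.68, beside 0.10, with 18 above 0 and 1 below. Serpinh1, the collagen chaperone, was at 176 and 201 TPM in TKO against 178 and 177 TPM in Setdb1-KO, with overlap. Summed over the list, TKO libraries held 1297 and 1196 TPM and Setdb1-KO libraries 777 and 940 TPM.

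Further genes higher in TKO at an adjusted p below 0.05 were named after their values were seen, and they are only a part of the 29. Others of the 29 include Acad8 (mean of 26.0 TPM in TKO and 15.9 TPM in Setdb1-KO) and Ppp2r5a (111 and 71.4 TPM). Cpe, which trims prohormones, was at 16.1 and 14.99 TPM in TKO against 7.05 and 8.04 TPM in Setdb1-KO (0.96, SE 0.143, adjusted p = 0.0081). Aqp8, a water channel, was at 29.6 and 33.0 TPM in TKO against 17.0 and 17.4 TPM in Setdb1-KO (0.82, SE 0.128, adjusted p = 0.00936). P4ha2, which hydroxylates collagen, was at 69.1 and 64.5 TPM in TKO against 37.2 and 40.1 TPM in Setdb1-KO (0.77, SE 0.15, adjusted p = 0.0306). Ctsl, a lysosomal protease and the most abundant of the 29, was at 642 and 693 TPM in TKO against 438 and 429 TPM in Setdb1-KO (0.62, SE 0.12, adjusted p = 0.0306). In each of these the 2 TKO libraries lay above both Setdb1-KO libraries. No theme was tested among them. The galectins split, with Lgals3 higher (49.2 and 47.0 TPM in TKO, 28.6 and 28.5 TPM in Setdb1-KO; adjusted p = 0.016) and Lgals1 lower (189 and 209 TPM in TKO, 355 and 306 TPM in Setdb1-KO; adjusted p = 0.0207).

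Pluripotency genes lay slightly higher in TKO. The list summed to 14040 and 14157 TPM in TKO against 12704 and 12844.5 TPM in Setdb1-KO. Of 26 members 22 lay above 0, with a median of 0.19 against 0.06 over all members. Without Setdb1-KO replicate 1 the list median was 0.08, beside -0.04 over all members. At an unadjusted p below 0.05, 9 were higher and 1 lower, beside 577 and 348 of all 12235 members. By the adjusted p at any size, 0 were higher and 1 lower. The 1 that passed was Fbxo15, an F-box gene of stem cells, at 123 and 131 TPM in TKO against 183 and 175 TPM in Setdb1-KO (-0.49, SE 0.078, adjusted p = 0.00941), which passed in 0 of 4 fits that left out a library. Dppa5a, the most abundant of them, was at 6281 and 6728 TPM in TKO against 6031 and 5803 TPM in Setdb1-KO (0.14, SE 0.123, adjusted p = 1). Genes for H3K9 methylation and silencing gave 0 of 41 called in either direction by limma (1 higher and 3 lower at an unadjusted p below 0.05), those of centromeres and mitosis 0 of 44 (0 and 0), imprinted genes 0 of 27 (6 and 6) and p53 targets 0 of 23 (2 and 0). The proteasome list gave 0 of 31 (0 and 0, median -0.02) and the ribosomal protein list 0 of 73 (0 and 0, median -0.09, with 66 below 0). Without Setdb1-KO replicate 1 the ribosomal protein median was 0.02, with 30 below 0. Cholesterol synthesis gave 0 of 21 (0 and 0, median 0.07), glycolysis and hypoxia 0 of 23 (0 and 0), cell cycle genes 0 of 27 (1 and 3), and the ATF4 and serine list 0 of 18 (1 and 4). The median by chromosome ran from 0.01 to 0.08 over 20 chromosomes.

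The same loss with Setdb1 in place, which shares no library with the comparison above, gave most of these genes the same sign. In DKO against control, 18 members were higher (0.147%) and 54 lower (0.441%). Of the 29 genes higher in TKO, 28 (96.6%) also had a positive log2 fold change in DKO, against 40.6% of all members, with a median of 0.43. Of the 43 lower in TKO, 41 (95.3%) also had a negative one, against 59.3% of all members, with a median of -0.75. Past the full rule the overlap was 2 of the 5 higher (40% of them, and 11.1% of the 18) and 6 of the 8 lower (75% of them, and 11.1% of the 54). Both comparisons set SE cells against 33-6 cells, so what these cells differ in besides Suv39h1/2 cannot be told apart from the loss. Across the 12235 genes, which are not independent replicates, Pearson's r was 0.33 and Spearman's rho 0.20.

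S100g was at 9.25 and 9.34 TPM in DKO against 2.67 and 1.57 TPM in control (1.74, SE 0.168, adjusted p = 2.36e-05), and Dab2 at 24.5 and 23.8 TPM in DKO against 10.4 and 10.2 TPM in control (1.16, SE 0.139, adjusted p = 0.000224). Lincenc1 was at 10.3 and 10.98 TPM in DKO against 28.0 and 27.5 TPM in control (-1.30, SE 0.102, adjusted p = 2.84e-06). For these 3 the difference between the 2 losses did not pass the test (adjusted p = 0.592, 0.944 and 0.861). 1700110I01Rik was at 0.0921 and 0.122 TPM in DKO and listed at 0 in both control libraries, below the level at which a change could be read.

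**Figure D4:**
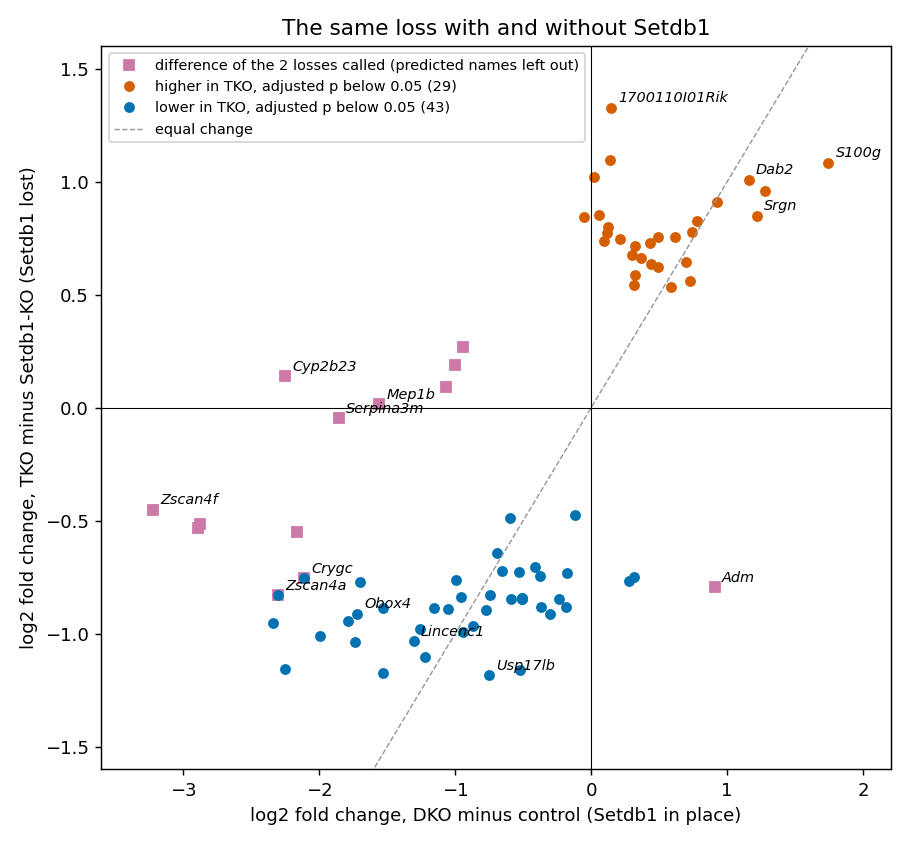
Log2 fold change of TKO minus Setdb1-KO (vertical axis) against that of DKO minus control (horizontal axis) for the 72 genes at an adjusted p below 0.05 in TKO against Setdb1-KO and those whose difference was called. All but 3 of the 72 lie in the quadrants of equal sign, and Zscan4f and Cyp2b23 lie far to the left of the line of equal change.

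The size of the loss differed by background at 22 members (0.18%), 20 with a log2 difference above 0 (0.163%) and 2 below (0.0163%); scaled by median ratios the counts were 16 and 8. They were 11 and 1 or 11 and 2 without either TKO library, Setdb1-KO replicate 1 or control replicate 1, and 25 and 4 without Setdb1-KO replicate 2. The difference is TKO minus Setdb1-KO, less DKO minus control. Both groups of the first pair carried the label OHT and both of the second NT. The loss of Setdb1 therefore cannot be told apart from these labels. Zscan4f gave the largest, at 2.39 and 3.46 TPM in DKO against 32.4 and 38.2 TPM in control (-3.22), beside -0.45 in TKO against Setdb1-KO (difference 2.76, SE 0.201, adjusted p = 1.7e-05). Zscan4c was at 1.66 and 2.34 TPM in DKO against 20.9 and 20.9 TPM in control (difference 2.36, SE 0.218, adjusted p = 7.81e-05). Zscan4a, Zscan4b and Zscan4d passed too, so that 5 members of the 2-cell list, all of the Zscan4 family, fell further in DKO against control than in TKO against Setdb1-KO. Zscan4d did not pass with a pseudocount of 0.1 (adjusted p = 0.0632), with no filter on low values (0.127) or in 6 of 8 fits that left out a library (0.0816 to 0.134), and Zscan4c did not pass with a pseudocount of 0.1 (0.158). Usp17lb, below 1 TPM in DKO and control and so with little room to fall there, and Obox4 did not pass (adjusted p = 0.67 and 0.21).

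Genes outside that family passed as well. Cyp2b23, a cytochrome P450, was at 144 and 117 TPM in TKO against 111 and 126 TPM in Setdb1-KO, and at 3.01 and 2.21 TPM in DKO against 16.4 and 15.7 TPM in control (difference 2.39, SE 0.201, adjusted p = 3.67e-05). Serpina3m, a serpin, was at 22.1 and 22.7 TPM in TKO against 22.2 and 24.1 TPM in Setdb1-KO, and at 2.42 and 3.03 TPM in DKO against 12.7 and 12.2 TPM in control (difference 1.81, SE 0.155, adjusted p = 3.67e-05). Mep1b, a subunit of meprin proteases, was at 175 and 170 TPM in TKO against 165 and 177 TPM in Setdb1-KO, and at 4.11 and 4.14 TPM in DKO against 14.0 and 14.2 TPM in control (difference 1.57, SE 0.127, adjusted p = 3.45e-05). These 3 fell in DKO against control, while their libraries overlapped between TKO and Setdb1-KO. Adm, the vasodilator peptide adrenomedullin, went the other way, at 3.68 and 3.43 TPM in TKO against 6.05 and 7.86 TPM in Setdb1-KO, and at 13.6 and 12.1 TPM in DKO against 5.98 and 6.78 TPM in control (difference -1.70, SE 0.237, adjusted p = 0.00441).

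Where G9a was lost as well, the 2-cell genes lay on the other side. In QKO against G9a;Setdb1-DKO, 175 members were higher (1.43%) and 142 lower (1.16%). The 2-cell list had 14 of 39 higher, 1 lower and a median of 0.78, and the primitive endoderm list 0 of 19 higher, 6 lower and a median of -0.84. The difference between this and TKO against Setdb1-KO, a comparison added after seeing the data with no library on both sides, was called at 376 members (3.07%), 184 above 0 (1.5%) and 192 below (1.57%). Of the 2-cell list 23 of 39 differed, all with TKO against Setdb1-KO the lower, and of the primitive endoderm list 15 of 19, all with TKO against Setdb1-KO the higher. Usp17lb was at 542 and 538 TPM in QKO against 259 and 246 TPM in G9a;Setdb1-DKO (1.097, SE 0.119, adjusted p = 1.91e-05; difference -2.28, SE 0.168, adjusted p = 1.29e-06). Obox4 was at 842 and 706 TPM in QKO against 167 and 220 TPM in G9a;Setdb1-DKO (2.00, SE 0.142, adjusted p = 4.16e-07; difference -2.91, SE 0.201, adjusted p = 7.75e-07). Gata4 was at 17.1 and 14.3 TPM in QKO against 43.9 and 44.8 TPM in G9a;Setdb1-DKO (-1.45, SE 0.143, adjusted p = 8.61e-06; difference 1.98, SE 0.202, adjusted p = 3.11e-05). The signs of these 3 genes were thus opposite on the 2 backgrounds, but the rise of Gata4 in TKO against Setdb1-KO did not pass the test. Ehmt2 transcript was at 17.7 and 16.7 TPM in QKO against 7.38 and 7.47 TPM in G9a;Setdb1-DKO, and QKO and G9a;Setdb1-DKO cells also bear different names (3S1G and SG), whose part was not tested.

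**Figure D5:**
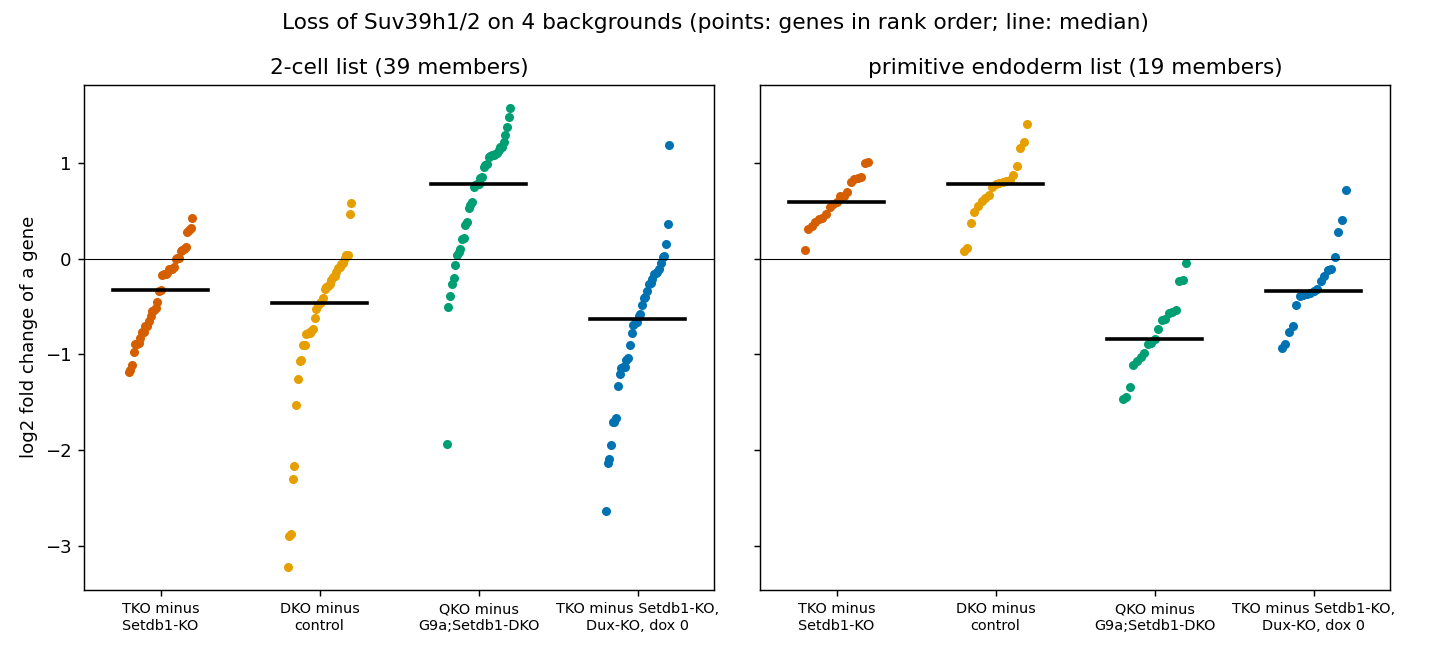
Log2 fold change (vertical axis) of each member of the 2-cell list (left) and the primitive endoderm list (right) for loss of Suv39h1/2 on 4 backgrounds (horizontal axis), with the median as a line. The 2-cell medians are -0.33, -0.46, 0.78 and -0.63, and the primitive endoderm medians are 0.59, 0.78, -0.84 and -0.34.

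Of the 43 genes lower in TKO, 11 were higher by the full rule in QKO against G9a;Setdb1-DKO, among them Zscan4a, Usp17lb, Obox4, Cml2 and Fbxo15, and 4 were lower, among them Lefty1, Lefty2 and Lgals1. Zscan4a was at 414 and 427 TPM in QKO against 188 and 186 TPM in G9a;Setdb1-DKO. Lefty1 fell by 2.34 on the log2 scale (SE 0.167, adjusted p = 4.16e-07) and Lefty2 by 1.197 (SE 0.116, adjusted p = 7.7e-06). Lefty1 and Lefty2 thus fell on both of these backgrounds, Lefty1 further in QKO (difference 1.45, SE 0.236, adjusted p = 0.0015). Cyp4a12b rose on both, with 1.19 (SE 0.116, adjusted p = 7.7e-06) in QKO.

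Without endogenous Dux and without doxycycline, 34 of 12192 members were higher (0.279%) and 168 lower (1.38%) in TKO than in Setdb1-KO, with a median of -0.14 over all members. Setdb1-KO replicate 2 stood apart there, with a mean log2(TPM+1) of Snhg genes, hosts of nuclear noncoding RNA, of 3.04 and 2.81 in TKO and of 2.61 and 4.499 in Setdb1-KO. Without that library 32 were higher and 58 lower, without Setdb1-KO replicate 1 there were 45 and 268, without TKO replicate 1 there were 19 and 50, and scaled by median ratios 59 and 124. Of the 43 genes lower in TKO with Dux, 37 (86%) also had a negative log2 fold change here, against 66% of all members, and 8 were called lower (18.6% of the 43, and 4.76% of the 168). Of the 29 higher ones 28 were tested, 11 (39.3%) had the same sign, against 33.9% of all members, and 1 was called. That gene was Cpe, at 26.8 and 22.2 TPM in TKO against 7.11 and 9.06 TPM in Setdb1-KO (1.49, SE 0.163, adjusted p = 3e-05). Lincenc1 was at 13.02 and 20.6 TPM in TKO against 74.5 and 67.7 TPM in Setdb1-KO (-2.05, SE 0.306, adjusted p = 0.000368), and Obox4 at 1.91 and 2.00 TPM in TKO against 6.45 and 11.97 TPM in Setdb1-KO (-1.73, SE 0.265, adjusted p = 0.000477). These 3 genes moved the same way with and without Dux.

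In the Dux-deficient cells the 2-cell genes lay far below their level with Dux in place, and the tables were normalised separately. Usp17lb was at 1.16 and 0.572 TPM in TKO against 1.68 and 2.21 TPM in Setdb1-KO (adjusted p = 0.429), and Zscan4f at 1.15 and 0.817 TPM in TKO against 2.97 and 5.21 TPM in Setdb1-KO (adjusted p = 0.105). Of 38 members of the list tested 7 were lower, 0 higher, with a median of -0.63; without Setdb1-KO replicate 2, 1 was lower and the median was -0.41. With a term for the libraries of high Snhg level, 7 were lower, 1 was higher and the median was -0.14, beside 46 higher and 145 lower over all members. The primitive endoderm list had 0 of 19 higher and 0 lower by limma, with a median of -0.34, or -0.09 without that library. Dab2 was at 17.8 and 16.9 TPM in TKO against 18.9 and 27.6 TPM in Setdb1-KO (-0.38, adjusted p = 0.63). The higher level of Dab2 and its list in TKO was thus not seen in these cells, and the difference between the tables was not tested. Suv39h1 was at 11.6 and 11.7 TPM in TKO against 19.7 and 29.9 TPM in Setdb1-KO (-0.99, adjusted p = 0.00656).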

How the data were processed

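RNA was read from mouse embryonic stem cells with a stranded, poly(A)-selecting TruSeq kit, read as 150 nt pairs, according to the labels' protocols. The submitters' processing notes name RSEM 1.3.1, STAR 2.7.10b, SAMtools 1.9 and Bowtie2 2.3.4.1, and the build mm10. The sources used here do not give which tool did what, the annotation, or how reads of copies were shared out. The authors deposited TPM per gene as 2 tables, of 18 and 32 libraries, each normalised alone; all columns had a sample (0 without), and 2 transgene rows were left out.

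From the deposited TPM, log2(TPM+1) was taken for the genes (13862 and 13817) that 2 or more libraries of the table held at no less than 1 TPM. It was fitted with limma 3.58.1 in R 4.3.3, all groups of a table together (9 and 16 residual degrees of freedom), with a trend of variance on level. The fold changes are on that scale and understate changes of low genes. Adjusted p-values are Benjamini-Hochberg over all genes tested; a gene was called below 0.05 with a log2 fold change of at least 1 in size. Members and gene lists were chosen with earlier results of these data known. Named genes are the targeted genes and Dux, called genes without overlap, called and the 2 most abundant uncalled list members, and the 8 largest differences in either direction; predicted names were otherwise left out, and further genes, with the matrix and transcription factor genes of the primitive endoderm list, were named after their values were seen. Depth is unknown for TPM, so no counting interval is given. Alternatives were another pseudocount, filters, scaling, a replicate block, fewer libraries in the fit, a term for high Snhg level (Dux-deficient table) and each library left out. Positions and transcript lengths are from GENCODE M21 (GRCm38; 11776 of 12235 members had a length), promoters from RefSeq, aligned with Biopython 1.88. Figures were drawn with matplotlib 3.10.9. A withheld item is not reported here.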

Additional observations from a re-analysis of the deposited data

Results flagged for a closer look

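The response to Suv39h1/2 loss differed between backgrounds for 9 named genes, by a direct test of the difference of TKO minus Setdb1-KO from DKO minus control (limma, log2 scale). These backgrounds also differ in the labels OHT and NT, which cannot be told apart from the loss of Setdb1. The difference was 2.76 for Zscan4f (adjusted p = 1.7e-05), 2.39 for Cyp2b23 (adjusted p = 3.67e-05), 2.36 for Zscan4c (adjusted p = 7.81e-05), 2.36 for Zscan4b (adjusted p = 0.00178) and 1.81 for Serpina3m (adjusted p = 3.67e-05). It was 1.61 for Zscan4d (adjusted p = 0.0169), 1.57 for Mep1b (adjusted p = 3.45e-05), 1.47 for Zscan4a (adjusted p = 0.00146) and -1.70 for Adm (adjusted p = 0.00441). The 5 Zscan4 genes are of the same family, and how reads of copies were shared out is not stated. They do not count as 5 separate observations. Zscan4d lost the test in 6 of 8 fits that left out a library, and Zscan4c and Zscan4d with a pseudocount of 0.1.

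Against QKO minus G9a;Setdb1-DKO, 376 members differed in the same kind of test, and 8 of the named ones are given, chosen after their values were seen. The difference was -2.91 for Obox4 (adjusted p = 7.75e-07), -2.28 for Usp17lb (adjusted p = 1.29e-06), -2.14 for Usp17la (adjusted p = 8.13e-05), -1.999 for Zscan4a (adjusted p = 1.14e-05) and -1.53 for Zscan4f (adjusted p = 0.000285). It was 1.98 for Gata4 (adjusted p = 3.11e-05), 1.42 for Srgn (adjusted p = 0.000137) and 1.24 for Dab2 (adjusted p = 0.00114).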

How the results depend on the processing

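Counts are given as higher and lower, over the members unless all genes are named. For TKO against Setdb1-KO, 5 and 8 became 29 and 43 with no minimum fold, 7 and 13 with a pseudocount of 0.1, 3 and 4 with no filter on low values, 4 and 16 scaled by median ratios, 1 and 1 with the 4 libraries alone, 3 and 8 at 5 TPM or more, and 2 to 6 and 3 to 8 with a library left out. For DKO against control, 18 and 54 became 124 and 157 with no minimum fold, 52 and 123 with a pseudocount of 0.1, and 15 to 18 and 47 to 58 with a library left out. For the difference of these losses, 20 and 2 became 47 and 5 with a pseudocount of 0.1, 13 and 2 over all genes with no filter (12 and 2 over the members), 16 and 8 scaled, 30 and 7 with the replicate block, and 11 to 25 and 1 to 4 with a library left out. For QKO against G9a;Setdb1-DKO, 175 and 142 became 1158 and 1274 with no minimum fold, 326 and 227 with a pseudocount of 0.1, 190 and 235 over all genes with no filter (164 and 133 over the members), and 167 to 244 and 108 to 204 with a library left out. Without endogenous Dux, 34 and 168 became 324 and 514 with no minimum fold, 59 and 124 scaled, 46 and 145 with a term for high Snhg level, and 19 to 45 and 50 to 268 with a library left out; with the 4 libraries alone limma called 0 and 0, with 1724 members at an unadjusted p below 0.05. For the difference from the loss with G9a lost, 184 and 192 became 538 and 396 with no minimum fold, and 133 to 254 and 162 to 223 with a library left out. The cause of these moves was not tested. The 4 libraries alone also leave fewer degrees of freedom, whose part was not tested. With the replicate number as a block, TKO against Setdb1-KO gave 6 and 9, all 13 genes among them; Sparc (adjusted p = 0.0355) and Adm (0.039) then passed, and the primitive endoderm list had 5 higher at any size. Deviations of same-numbered TKO and Setdb1-KO libraries correlated at 0.055, and those of the other 5 pairs of TKO, Setdb1-KO, DKO and control at 0.25 to 0.49; with 2 replicates and no label for it, the numbers are not shown to pair the libraries. Of the 13 called genes, 4 kept an adjusted p below 0.05 with any library left out (Cyp4a12b, Usp17lb, Lincenc1 and B020031M17Rik) and 4 lost it each time (AI662270, Gm2022, Gm4971 and Gm5039); a lone remaining library is assumed to vary like the other groups. Of the 43 genes whose TKO against Setdb1-KO value was recomputed, none that passed the test changed direction. Of those that did not pass, some changed sign with a library left out. These were Setdb1 (-0.07 to 0.31), Cyp2b23 (-0.01 to 0.29), Serpina3m (-0.10 to 0.01) and Mep1b (-0.03 to 0.06). Mep1b was at 0.02 with all libraries and at -0.05 scaled. Aurkc, Tdrd12, Cpe, Aqp8, P4ha2, Ctsl, Lgals1 and Lgals3 were not recomputed. TPM keeps no depth, so small changes of low genes were not detectable here.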

Other observations

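Genes of the Y chromosome (Ddx3y, Kdm5d, Eif2s3y and Uty) were listed at 0 in all libraries of the groups described above.

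Tesc, which was not called, was at 37.1 and 36.1 TPM in TKO against 18.2 and 15.99 TPM in Setdb1-KO (a log2 fold change of 1.05 with an SE of 0.244 and an adjusted p = 0.0919 by limma), with no overlap between the groups. In the Dux-deficient table, Ehmt2, which none of these groups is labelled to lack, was at 82.1 and 113 TPM in TKO against 196 and 178 TPM in Setdb1-KO (-0.95, adjusted p = 0.0892).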
